A study of Homo sapiens with 15 samples.

Results

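The genes described here are 50 genes of the G2/M transition and of mitosis, taken by name from 58219 gene rows of an RNA-seq count table. They were chosen by their textbook roles, with earlier results of these data known. They comprise CDK1 with its cyclins and CDC25 phosphatases, the mitotic kinases, the spindle checkpoint and the anaphase-promoting complex. Kinetochore proteins, mitotic kinesins, spindle and midzone proteins, topoisomerase IIα and a pair of transcription factors complete the set. All 50 had a row of their own, and all 50 were among the 17599 genes expressed highly enough to be tested. The lowest value of any of them in any library, 10.5 CPM (counts scaled to the size of the library) for SPC25, was well above the 0.0864 to 0.140 CPM that 3 counts amount to, depending on the library.

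RNA was measured in BEAS-2B, an immortalised line derived from normal human bronchial epithelium, so every library came from 1 cell line and the groups have no donor variation. The cells grew without serum on collagen, and fine particulate matter (PM2.5) extracted in water from Beijing air filters was added to the medium. Cells collected at 24 h had received vehicle, 1 µg/cm2 or 30 µg/cm2 of PM2.5, and cells collected after 7 d had received vehicle or 1 µg/cm2 every day, with a wash between additions. The labels give an addition on each of the 7 days, whereas the study's methods describe an addition fewer, with collection on day 7. Each of these 5 groups held 3 libraries from 3 independent experiments, whose number closes the sample name. The cells of the 7-d protocol were seeded more sparsely than those of the 24-h protocol and were washed daily, so time, seeding and experiment cannot be told apart between the protocols.

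Entry into mitosis is driven by CDK1 bound to cyclin A or cyclin B, which CDC25 phosphatases switch on and WEE1 holds back. The genes for this machinery are transcribed late in the cycle, when the MuvB complex joins B-MYB (the product of MYBL2) and then FOXM1 at promoters that carry CCAAT boxes and a cell cycle homology region (CHR), and the same promoters are silenced in G0, G1 and after p53 is activated, when the DREAM complex occupies the CHR. The messages therefore rise and fall with the share of cells in G2 and mitosis, and in bulk RNA fewer such cells and less message per cell cannot be told apart.

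In untreated cells at 24 h the 50 genes were abundant. Their median level was 44.2 CPM per kilobase of exon, against 3.46 CPM per kilobase over all genes tested. CKS2, a small subunit of CDK complexes, had the highest level per length, 472 ± 41.2 CPM per kilobase (SD, n = 3). CCNB1 (cyclin B1) followed with 249 ± 44.9 CPM per kilobase, and UBE2C, the ubiquitin-conjugating enzyme of the anaphase-promoting complex, stood at 202 ± 41.5 CPM per kilobase, so these neighbours did not differ beyond their spread. The lowest levels per length were those of SPC25, a subunit of the NDC80 complex, at 10.9 ± 1.52 CPM per kilobase, and ESPL1 (separase) at 12.6 ± 1.47 CPM per kilobase, which again lay within their spread of each other. The members moved in parallel over the 15 libraries as well: the correlation of each with the mean of the other members had a median of 0.81, from 0.96 for TPX2 down to 0.14 for KIF20B. Over the 9 libraries at 24 h the median was 0.88. Within the 7-d libraries the members did not all move together: there the correlations ran from 0.99 for CCNA2 to -0.96 for NUF2. The libraries share their treatments and experiments, so this describes the set and tests nothing.

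The promoters of 6 members, chosen with their values known, are shown so that the presence or absence of the motifs named above can be read beside the values below: 4 of these genes fell at the high dose and CDK1 and MYBL2 were not called. Each line gives the 250 bases before the RefSeq transcription start in GRCh38.p14, from 5′ to 3′ on the strand of the gene. Capitals mark CCAAT and TTTGAA (the only form of the CHR searched), or their reverse complements ATTGG and TTCAAA. They lie at chr5:69166900-69167149 (plus strand) for CCNB1, chr10:60778081-60778330 (plus) for CDK1, chr16:23678639-23678888 (plus) for PLK1, chr1:43358731-43358980 (plus) for CDC20, chr17:40417897-40418146 (minus) for TOP2A and chr20:43666864-43667113 (plus) for MYBL2.
CCNB1: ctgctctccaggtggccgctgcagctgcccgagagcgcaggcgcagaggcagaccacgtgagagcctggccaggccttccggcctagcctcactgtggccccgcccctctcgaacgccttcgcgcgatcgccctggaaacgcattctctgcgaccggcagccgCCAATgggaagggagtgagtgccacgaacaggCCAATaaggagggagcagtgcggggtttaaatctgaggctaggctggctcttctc
CDK1: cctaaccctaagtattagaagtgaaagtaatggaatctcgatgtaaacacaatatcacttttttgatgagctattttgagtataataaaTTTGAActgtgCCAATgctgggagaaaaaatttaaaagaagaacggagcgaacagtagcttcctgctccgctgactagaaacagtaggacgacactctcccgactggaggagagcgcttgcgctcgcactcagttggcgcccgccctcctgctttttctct
PLK1: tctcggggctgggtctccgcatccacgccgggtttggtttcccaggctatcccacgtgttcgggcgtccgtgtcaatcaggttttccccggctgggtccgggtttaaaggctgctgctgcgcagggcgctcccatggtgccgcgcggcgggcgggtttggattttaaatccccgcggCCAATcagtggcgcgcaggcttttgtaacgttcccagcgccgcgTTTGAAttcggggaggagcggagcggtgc
CDC20: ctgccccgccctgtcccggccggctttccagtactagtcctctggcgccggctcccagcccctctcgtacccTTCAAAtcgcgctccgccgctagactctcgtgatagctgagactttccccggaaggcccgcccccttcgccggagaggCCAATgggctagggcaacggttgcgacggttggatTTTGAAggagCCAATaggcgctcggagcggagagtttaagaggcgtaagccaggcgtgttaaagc
TOP2A: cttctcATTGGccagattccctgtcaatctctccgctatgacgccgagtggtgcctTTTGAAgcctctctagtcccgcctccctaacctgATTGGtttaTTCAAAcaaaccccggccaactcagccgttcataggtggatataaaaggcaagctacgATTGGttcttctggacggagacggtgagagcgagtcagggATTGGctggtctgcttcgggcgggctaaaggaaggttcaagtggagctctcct
MYBL2: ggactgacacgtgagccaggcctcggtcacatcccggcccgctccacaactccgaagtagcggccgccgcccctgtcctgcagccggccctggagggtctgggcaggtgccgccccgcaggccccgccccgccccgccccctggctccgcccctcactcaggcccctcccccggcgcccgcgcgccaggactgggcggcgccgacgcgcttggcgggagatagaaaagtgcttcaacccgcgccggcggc
Counted from -1 for the base just before the start, CCNB1 held CCAAT boxes that begin at -87 and -55, and no TTTGAA. CDK1 held TTTGAA at -161 and a CCAAT box at -150. PLK1 held a CCAAT box at -73 and TTTGAA at -29, and CDC20 held CCAAT boxes at -100 and -55 with TTTGAA at -65 and, on the other strand, at -178. TOP2A held 4 CCAAT boxes, all on the other strand, and TTTGAA on either strand. MYBL2 had neither run of letters in this window.

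Of the 50 members, 43 had an entry in the promoter table, and AURKA and FOXM1 were among those without. Searched on both strands over 300 bases (250 before the start and 50 after it), CCAAT occurred in 33 of the 43 members (76.7%) and in 36.0% of the 12101 promoters of genes tested. TTTGAA occurred in 29 of the 43 (67.4%) and in 9.87% of the promoters of genes tested. Both occurred in 25 members (58.1%), against 4.05%. Split by the calls at 30 µg/cm2 below, CCAAT occurred in 20 of the 24 called members with a promoter entry and in 13 of the 19 that were not called, and TTTGAA in 17 and 12. CENPE and CKAP2 had neither motif and were called, CDK1 had both and AURKB had CCAAT and they were not, and CDC25B, CDC25C, KIF2C and MYBL2 had neither and were not called. Over all 27305 promoters of the table, tested or not, CCAAT was found in 35.7% and TTTGAA in 15.4%. A match is a run of letters and was not tested for binding, and in the 6 promoters shown no match overlapped another. A promoter without TTTGAA is not shown to lack a CHR, since other forms were not searched. For each gene 1 RefSeq start was used, and it can lie inside the counted gene, as for PLK1, whose counted exons begin at 23677656.

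The libraries held 21460981 to 34724765 counts each (median 29243177), and 2.37 to 4.40% of counts came from mitochondrial genes. Experiment 2 of the 24-h protocol stood apart from experiments 1 and 3 in all 3 of its libraries. Its mitochondrial shares were 4.40% in the control, 4.17% at 1 µg/cm2 and 4.13% at 30 µg/cm2. All other libraries had 3.42% or less. Within a group, counts of experiment 2 differed from the other experiments with a chi-square of 68.6 to 161 per degree of freedom, whereas experiments 1 and 3 differed from each other by 4.11 to 16.4. The members were affected unevenly, in relation to exon length. In cells given 30 µg/cm2, the level in experiment 2 minus the mean level of experiments 1 and 3 had a median of 0.51 on the log2 scale over the members, 42 of the 50 being higher in experiment 2. This difference had a Spearman correlation with exon length of -0.81 across the 50 genes, against -0.35 across all genes tested. In the controls the correlation was -0.59 across the members, with a median difference of 0.08, and at 1 µg/cm2 it was -0.75, with a median of -0.10. At 30 µg/cm2 the short CKS2 was thus higher, and the long KIF14, KIF20B and ASPM were lower, in experiment 2. Experiments 1 and 3 differed from each other in relation to exon length too. Across the members, experiment 1 minus experiment 3 had correlations of 0.72 in the controls, 0.59 at 1 µg/cm2 and 0.26 at 30 µg/cm2. The median differences were -0.11, -0.13 and -0.05. All these correlations are across genes that share libraries. What set experiment 2 apart was not tested, and the counts of calls without it are given below, with values for named genes whose call changed.

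**Figure D1:**
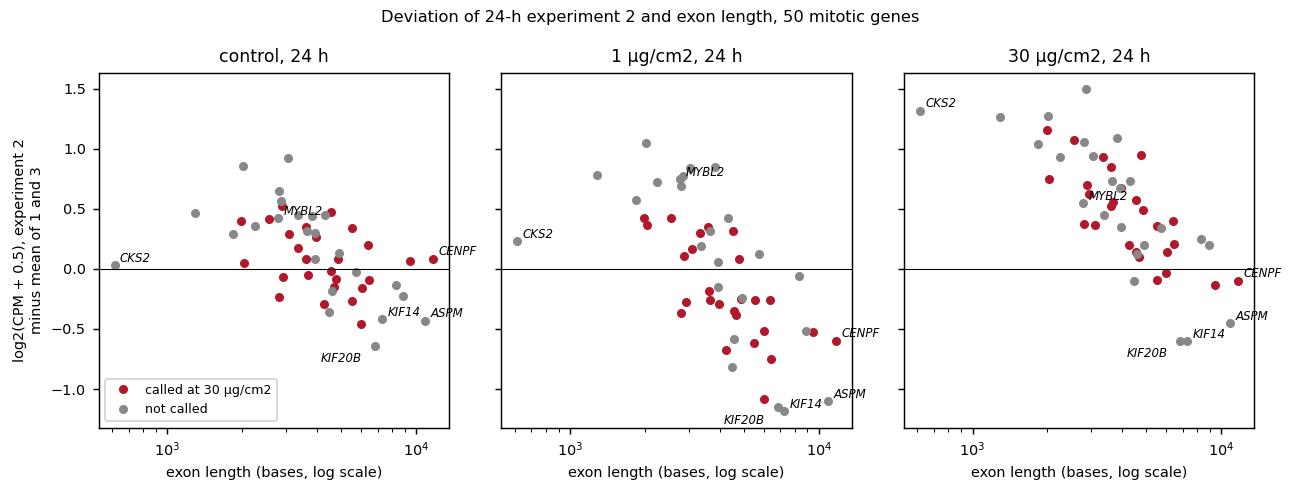
Level of each of the 50 genes in experiment 2 minus the mean of experiments 1 and 3 at 24 h, in log2(CPM + 0.5), against exon length in bases on a log axis, for the 3 groups of the 24-h protocol. Red points are genes called lower at 30 µg/cm2 and grey points the rest, and in each panel short transcripts lie higher than long ones, with Spearman correlations of -0.59, -0.75 and -0.81 from left to right.

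The comparison of 30 µg/cm2 with vehicle at 24 h asks what a high exposure does to the cells. Messages of the mitotic machinery were lower at 30 µg/cm2: 26 of the 50 members fell and none rose (30 fell and none rose in DESeq2, where 5.68% of all genes were lower), where a gene was called with a Benjamini-Hochberg adjusted p below 0.05 over all 17599 genes and a log2 fold change of at least 0.6 in edgeR's quasi-likelihood test. Over all genes tested, 4.24% were called lower and 3.82% higher. The fitted log2 fold change was below 0 for all 50 members (46.9% of all genes), and its median was -0.73, against 0.03 over all genes. The summed level of the 50 members was 11580, 12895 and 11957 CPM in the 3 control libraries, and 6391, 9187 and 6562 CPM at 30 µg/cm2, each list in the order of experiments 1 to 3. The groups did not overlap, and experiment 2 was the highest of each. For 33 members taken singly the groups did not overlap (11.1% of all genes were lower without overlap), and 46 were lower in all 3 same-number pairs (23.8%).

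Of CDK1, its cyclins and CDC25 phosphatases, 2 of 7 fell. CCNB1 (chr5:69167010-69178245, plus strand, GRCh38), the cyclin whose arrival with CDK1 starts mitosis, was at 537, 763 and 611 CPM in the controls and at 229, 497 and 245 CPM at 30 µg/cm2. The groups did not overlap, although experiment 2 stayed close to the lowest control. Its log2 fold change was -0.98 ± 0.25 (SE), with an adjusted p of 0.023. CCNA2 (cyclin A2), which acts from S phase into early mitosis, stood at 213, 187 and 227 CPM in the controls and at 107, 143 and 114 CPM in treated cells, a log2 fold change of -0.78 ± 0.14 (adjusted p = 0.0026). It shares 9.08% of its exon bases with EXOSC9 on the other strand. CDK1 itself (chr10:60778331-60794852, plus strand) was at 344, 387 and 389 CPM in the controls and 210, 345 and 223 CPM at 30 µg/cm2. Here the groups overlapped through experiment 2, and the log2 fold change of -0.52 ± 0.16 did not pass (adjusted p = 0.062). Without experiment 2 CDK1 was called, at -0.77 ± 0.10 (adjusted p = 2.3e-05). CCNB2, CKS2, CDC25B and CDC25C had fitted values of -0.75, -0.74, -0.55 and -0.47 on the log2 scale, with adjusted p of 0.11 to 0.39. With the experiment number as a block in the fit, CCNB2 and CKS2 were also called. Without experiment 2 they were called too, at -0.96 and -1.33, as was CDC25B at -0.69, while CDC25C had -0.50.

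Of the mitotic kinases, 3 of 4 fell. PLK1 (chr16:23677656-23690367, plus strand), which promotes mitotic entry, centrosome maturation and the exit from mitosis, was at 152, 149 and 164 CPM in the controls and at 60.2, 119 and 62.9 CPM at 30 µg/cm2. The treated libraries lay below every control, and the log2 fold change was -0.94 ± 0.21 (adjusted p = 0.011). AURKA, the kinase of centrosomes and spindle poles, was at 206, 208 and 232 CPM in the controls and 101, 153 and 98.0 CPM in treated cells, a log2 fold change of -0.87 ± 0.16 (adjusted p = 0.0036). NEK2, which separates the centrosomes, fell by 0.65 on the log2 scale (adjusted p = 0.0080). AURKB, the kinase of the chromosomal passenger complex, was at 96.3, 134 and 113 CPM in the controls and at 67.5, 128 and 66.5 CPM at 30 µg/cm2. Its treated value in experiment 2 lay within the range of the controls, and the log2 fold change of -0.38 ± 0.25 did not pass (adjusted p = 0.39). Without experiment 2 AURKB was called, at -0.65 ± 0.09 (adjusted p = 1.6e-05).

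**Figure D2:**
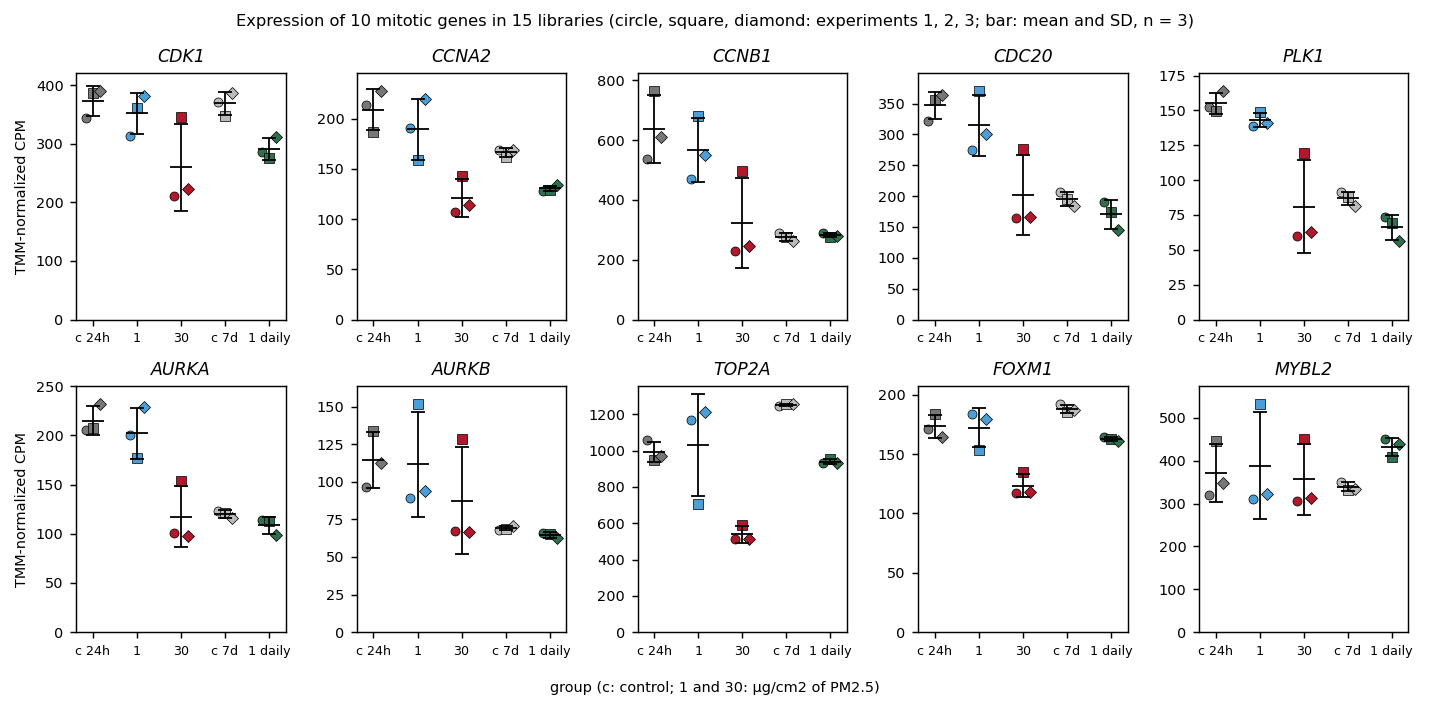
TMM-normalized CPM of 10 mitotic genes in each of the 15 libraries, by group, on axes that start at 0. Circles, squares and diamonds are experiments 1, 2 and 3, bars are the mean and SD (n = 3), and at 30 µg/cm2 the square lies above the circle and the diamond for all 10 genes, as for PLK1 with 119 against 60.2 and 62.9 CPM.

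The spindle checkpoint and the anaphase-promoting complex had 2 calls among 9 genes. CDC20, the activator that the checkpoint holds in check until chromosomes are attached, was at 322, 355 and 364 CPM in the controls and at 164, 277 and 165 CPM at 30 µg/cm2. The groups did not overlap, and the log2 fold change was -0.78 ± 0.19 (adjusted p = 0.018). CDC20 shares near-identical sequence with the pseudogene CDC20P1, which had 94 to 282 counts per library, equal to 3.16% of the counts of CDC20. The checkpoint kinase BUB1 fell by 0.68 on the log2 scale (adjusted p = 0.0045). TTK and ESPL1 had adjusted p below 0.05 (0.030 and 0.025) with log2 fold changes of -0.53 and -0.56, short of the fold threshold. The checkpoint proteins BUB3 and MAD2L1 had the smallest changes of the group, -0.23 and -0.24, and neither passed. Without experiment 2 BUB1B, TTK, ESPL1, UBE2C and PTTG1 were also called, at -0.67, -0.65, -0.71, -0.87 and -0.91. BUB3 and MAD2L1 each had -0.38 in that fit, short of the fold threshold.

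Kinetochore genes were called in 4 of 6 cases. CENPF, a protein of the outer kinetochore that is made in G2, was at 465, 443 and 376 CPM in the controls and at 211, 197 and 211 CPM at 30 µg/cm2, so that experiment 2 did not stand apart for this long transcript. Its log2 fold change was -1.05 ± 0.16 (adjusted p = 0.00078). CENPA, the histone H3 variant of centromeres, was at 53.9, 74.0 and 58.1 CPM in the controls and at 23.1, 53.1 and 24.0 CPM in treated cells, with a log2 fold change of -0.89 ± 0.26 (adjusted p = 0.045). The treated library of experiment 2 lay just under the lowest control, and CENPA shares 6.96% of its exon bases with SLC35F6 on the same strand. CENPA was called in 3 of the 15 fits that left out a library, with log2 fold changes of -1.40 to -0.70, and without all of experiment 2 it had -1.26 ± 0.10 (adjusted p = 5.0e-08). The motor CENPE and the microtubule-binding NDC80 fell by 0.73 and 0.80 on the log2 scale. NUF2, the partner of NDC80, had -0.59, just short of the fold threshold, with an adjusted p of 0.023. Without experiment 2 NUF2 just passed the threshold, at -0.604 ± 0.09 (adjusted p = 4.6e-05).

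Mitotic kinesins fell in 6 of 9 cases and included the gene with the greatest change of all 50. KIF20A (chr5:138178719-138187715, plus strand), the motor that carries the passenger complex to the central spindle, was at 350, 426 and 360 CPM in the controls and at 108, 175 and 112 CPM at 30 µg/cm2. The highest treated library had less than the lowest control, and the log2 fold change was -1.53 ± 0.17 (adjusted p = 0.00012). Its exons share 3.34% of their bases with BRD8 and 1.72% with CDC23, both on the other strand. KIF11, the motor that pushes spindle poles apart, was at 260, 272 and 253 CPM in the controls and 119, 175 and 130 CPM in treated cells, a log2 fold change of -0.89 ± 0.14 (adjusted p = 0.0010). KIF18B, KIF23, KIF4A and KIFC1 fell by 0.64 to 0.88 on the log2 scale. KIF14 and KIF20B were not called, with -0.46 and -0.35, and KIF2C missed narrowly with -0.60 (adjusted p = 0.052). Without experiment 2 KIF2C was called, at -0.80 ± 0.09 (adjusted p = 2.0e-06), while KIF14 and KIF20B had -0.42 and -0.37.

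Spindle and midzone proteins were called in 8 of 12 cases, from PRC1, the bundler of the central spindle, to ECT2, the activator of RhoA at the cleavage furrow. ANLN (anillin), the scaffold of the contractile ring, was at 512, 367 and 500 CPM in the controls and at 230, 229 and 239 CPM at 30 µg/cm2. The treated libraries were close to each other and lay below all controls, with a log2 fold change of -0.98 ± 0.23 (adjusted p = 0.013). PRC1 and DLGAP5 each fell by 0.91 on the log2 scale, GTSE1 by 0.87, NUSAP1 by 0.76, TPX2 by 0.75, ECT2 by 0.63 and CKAP2 by 0.62. BIRC5 (survivin) had a fitted value of -0.89 but overlapping groups, at 282, 419 and 338 CPM in the controls and 137, 289 and 134 CPM at 30 µg/cm2, and did not pass (adjusted p = 0.067). PSRC1 was alike, with -0.91 and an adjusted p of 0.13. With the experiment number as a block, both were called, as were ASPM, KIF2C and PTTG1. Without experiment 2 BIRC5 had -1.21 ± 0.10 (adjusted p = 7.6e-08) and PSRC1 -1.40 ± 0.12 (adjusted p = 2.0e-07). In that fit ASPM and HMMR were called too, at -0.77 and -0.61.

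TOP2A (chr17:40388516-40417950, minus strand), the topoisomerase that disentangles sister chromatids, was at 1057, 950 and 971 CPM in the controls and 515, 592 and 511 CPM at 30 µg/cm2. Its log2 fold change was -0.88 ± 0.17 (adjusted p = 0.0042), with no overlap. The transcription factors of the set were not called. FOXM1 was at 171, 184 and 164 CPM in the controls and at 117, 135 and 118 CPM in treated cells, without overlap, and its log2 fold change of -0.49 ± 0.10 (adjusted p = 0.0083) was under the fold threshold. FOXM1 shares 15.9% of its exon bases with ITFG2 on the other strand, and whether counting used strand is not given in the sources used here. MYBL2 was at 320, 447 and 347 CPM in the controls and at 305, 451 and 313 CPM at 30 µg/cm2. The groups lay over one another, and the fitted -0.06 ± 0.21 was near 0 (adjusted p = 0.91). It was the member with the smallest change, and its sign turned when any of 3 libraries was left out.

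Experiment by experiment, the median treated-minus-control difference of the 50 members was -0.79 in experiment 1, -0.47 in experiment 2 and -0.84 in experiment 3, and 50, 46 and 50 members were lower. Without the 3 libraries of experiment 2, with 2 left in each 24-h group, the count of members called rose from 26 to 43 (9.95% of all genes were then lower). It was 40 (8.14% of all genes lower) when the 30 µg/cm2 library of experiment 2 alone was left out, 14 (2.37%) without that of experiment 1 and 16 (2.27%) without that of experiment 3, and 13 of the 26 were called in every fit that left out a library. With the experiment as a block, 33 were called lower (7.87% of all genes), the 26 among them. A fit on the libraries of the comparison alone called 8 (1.15% of all genes lower).

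**Figure D3:**
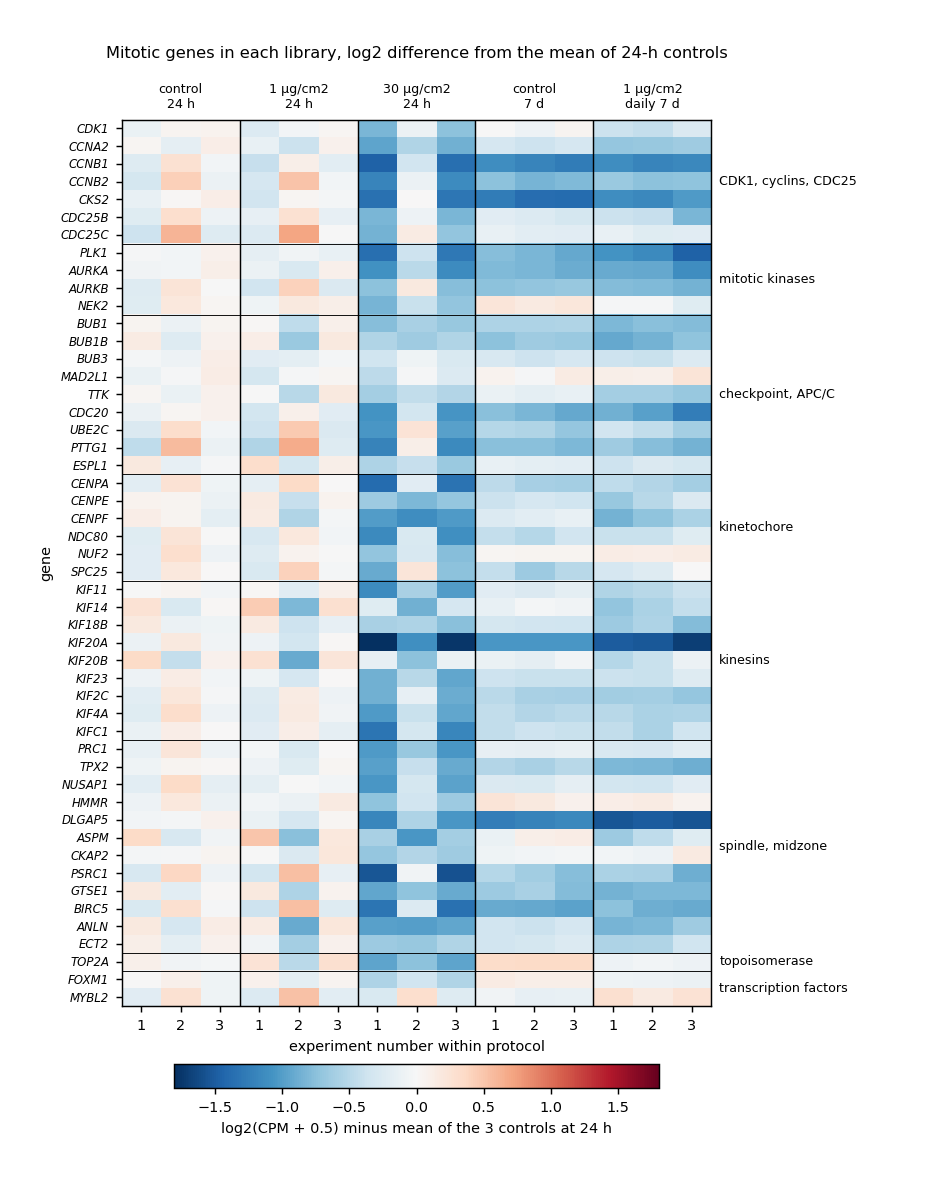
Log2 difference of each gene in each library from its mean in the 3 controls at 24 h, from log2(CPM + 0.5), with genes in rows by role and libraries in columns by group and experiment. Blue is lower and red higher. The columns of experiments 1 and 3 at 30 µg/cm2 are the deepest blue, the column of experiment 2 is paler, with a median difference from them of 0.51, and the 7-d libraries are blue for part of the genes.

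At 1 µg/cm2 for 24 h no member was called in either direction (over all genes, 0.017% lower and 0.0455% higher). None had an unadjusted p below 0.05 in edgeR, none was called by DESeq2 or with the experiment as a block, and the median log2 fold change was -0.07 (0.01 over all genes). The summed level was 11436, 11390 and 12191 CPM, within or just under the range of the same control libraries as above. TOP2A was at 1170, 708 and 1212 CPM, above its controls in experiments 1 and 3 and below in experiment 2, and the fitted value was 0.05 ± 0.17. CCNB1 was at 471, 682 and 551 CPM, overlapping the controls (log2 fold change -0.17 ± 0.25), and CDK1 at 314, 361 and 382 CPM (-0.08 ± 0.16). The fitted values of the 50 members ran from -0.17 to 0.14. For 1 member, PLK1 at 139, 149 and 141 CPM, the groups did not overlap, with the treated libraries lower (2.13% of all genes). The medians by experiment were -0.03, -0.23 and 0.04, so experiment 2 alone was displaced downwards. Without experiment 2 the median was 0.016, and 4 members had an unadjusted p below 0.05, with none called.

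**Figure D4:**
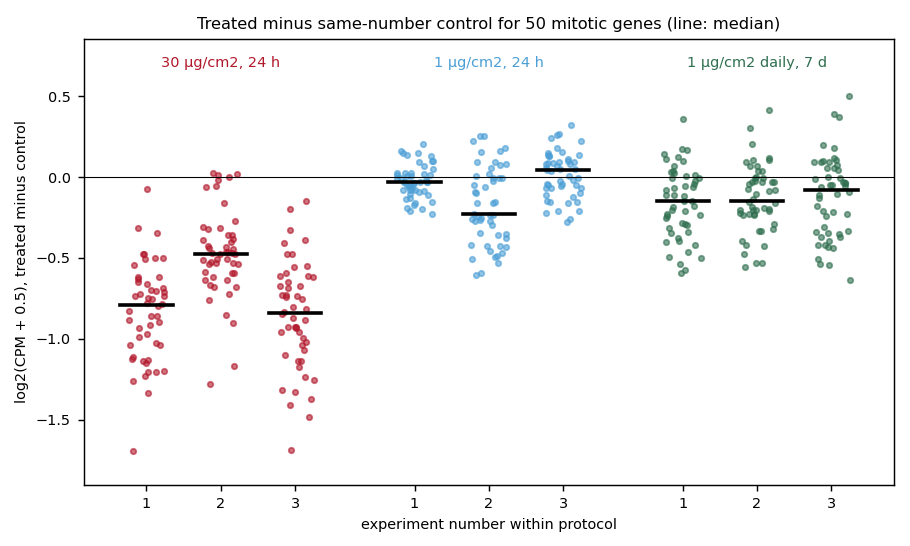
Treated minus same-number control for the 50 genes in each experiment, in log2(CPM + 0.5), with a point per gene and a line at the median. At 30 µg/cm2 the medians are -0.79, -0.47 and -0.84, at 1 µg/cm2 for 24 h -0.03, -0.23 and 0.04, and after daily 1 µg/cm2 -0.15, -0.15 and -0.08.

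The direct comparison of the doses at 24 h shares the 30 µg/cm2 libraries with the comparison above. At 30 µg/cm2, 23 members were lower than at 1 µg/cm2 and none higher (4.22% of all genes lower, 3.62% higher), and the median log2 difference was -0.64. All 50 fitted values were below 0 (48.8% of all genes), and 40 had an unadjusted p below 0.05. KIF20A led with -1.39 ± 0.17 (adjusted p = 0.00035), from 352, 300 and 382 CPM at the lower dose. Among the called members CENPA (-0.95), CENPF and TOP2A (each -0.93) and KIF11 (-0.86) followed, CENPA being called in 6 of the 15 fits that left out a library. PSRC1 (-0.95, adjusted p = 0.11) and BIRC5 (-0.91, adjusted p = 0.061) had fitted values as large and were not called, but were without experiment 2 (-1.36 and -1.06). FOXM1 had -0.48 ± 0.10 (adjusted p = 0.0098), and MYBL2 -0.12 ± 0.21. CCNB1 had -0.81 ± 0.25 and missed (adjusted p = 0.055), but was called with the experiment as a block, where 29 members were lower (8.58% of all genes). Without experiment 2 the count was 45 (9.97% of all genes lower), with CCNB1 at -1.13 ± 0.10 (adjusted p = 1.7e-07), and the medians by experiment were -0.79, -0.26 and -0.85. Leaving out the 30 µg/cm2 library of experiment 1, 2 or 3 gave 11, 39 and 10 calls (2.09%, 8.85% and 1.90% of all genes lower), and leaving out the 1 µg/cm2 library of experiment 3 gave 13 (3.29%). A fit on these 6 libraries alone called none (0.450% of all genes lower), although 31 members had an unadjusted p below 0.05 in it.

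Repeated exposure to 1 µg/cm2 for 7 d was compared with its own 7-d controls. The summed level of the members was 9589, 9436 and 9541 CPM in these controls and 8422, 8377 and 8562 CPM after daily PM2.5, without overlap. No member was called (0.125% of all genes lower, 0.102% higher) in edgeR, with the experiment as a block, or in DESeq2. At an unadjusted p below 0.05 there were 8 members in edgeR and 10 in DESeq2. The median log2 fold change was -0.13, against 0.01 over all genes. Groups did not overlap for 25 members that were lower (21.6% of all genes) and for 4 that were higher (21.3%), and 31 members were lower in all 3 same-number pairs (30.8%) while 10 were higher (30.5%).

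With the experiment as a block, 7 members had an adjusted p below 0.05 without reaching the fold threshold, among 7.32% of all genes lower and 4.89% higher on that criterion. Of these, 6 were lower. CENPF was at 358, 373 and 389 CPM in the 7-d controls and at 237, 258 and 287 CPM after daily PM2.5, a log2 fold change of -0.52 ± 0.16 without the block, where it did not pass (adjusted p = 0.19; 0.021 with the block). KIF20A was at 183, 182 and 182 CPM in the controls and 133, 131 and 117 CPM in treated cells, with -0.52 ± 0.17 (adjusted p = 0.23; 0.039 with the block). ASPM, KIF14, NEK2 and TTK were the others, with fitted values of -0.28 to -0.49 without the block. The remaining gene was MYBL2, which was higher: 350, 331 and 335 CPM in the controls and 450, 409 and 439 CPM after daily PM2.5, a log2 fold change of 0.35 ± 0.21 (adjusted p = 0.54; 0.024 with the block). In neither fit did its change reach 0.6.

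The libraries of experiment 2 at 24 h enter this comparison through the spread shared by all groups and through the set of genes tested. Without them 25 members had an unadjusted p below 0.05 in place of 8, and no member was called. On the adjusted p alone 18 were then lower and 2 higher, among 13.6% of all genes lower and 11.6% higher, and KIF20A had -0.52 ± 0.07 (adjusted p = 9.7e-05) and MYBL2 0.36 ± 0.07 (adjusted p = 0.0011).

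Among the other named genes TOP2A was at 1246, 1255 and 1257 CPM in the 7-d controls and at 933, 954 and 932 CPM after daily PM2.5. The groups were far apart for the spread within them, and the log2 fold change was -0.42 ± 0.17 (adjusted p = 0.34; 0.098 with the block). CDK1 was at 371, 348 and 387 CPM in the controls and 286, 276 and 312 CPM in treated cells (-0.34 ± 0.16), and CCNA2 at 169, 162 and 169 CPM and 128, 129 and 134 CPM (-0.35 ± 0.14). Neither pair of groups overlapped, and neither gene passed. Without experiment 2 of the 24-h protocol these 3 genes passed on the adjusted p but not on the fold: TOP2A had -0.41 ± 0.06 (adjusted p = 0.00030), CDK1 -0.34 ± 0.08 (adjusted p = 0.0085) and CCNA2 -0.35 ± 0.07 (adjusted p = 0.0018). CCNB1 was level, at 290, 276 and 263 CPM in the controls and 289, 275 and 281 CPM in treated cells. CKS2 lay on the other side, at 121, 112 and 110 CPM in the controls and 133, 129 and 143 CPM after daily PM2.5 (0.24 ± 0.27, adjusted p = 0.78). CCNB1 and CKS2 were thus level with or above their controls where TOP2A, CDK1 and CCNA2 were below theirs, with none of these changes called. CCNB1 and CKS2 have exon lengths of 2558 and 613 bases, and TOP2A, CDK1 and CCNA2 of 6437, 3931 and 2798. A relation of the 7-d changes to exon length was not tested.

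**Figure D5:**
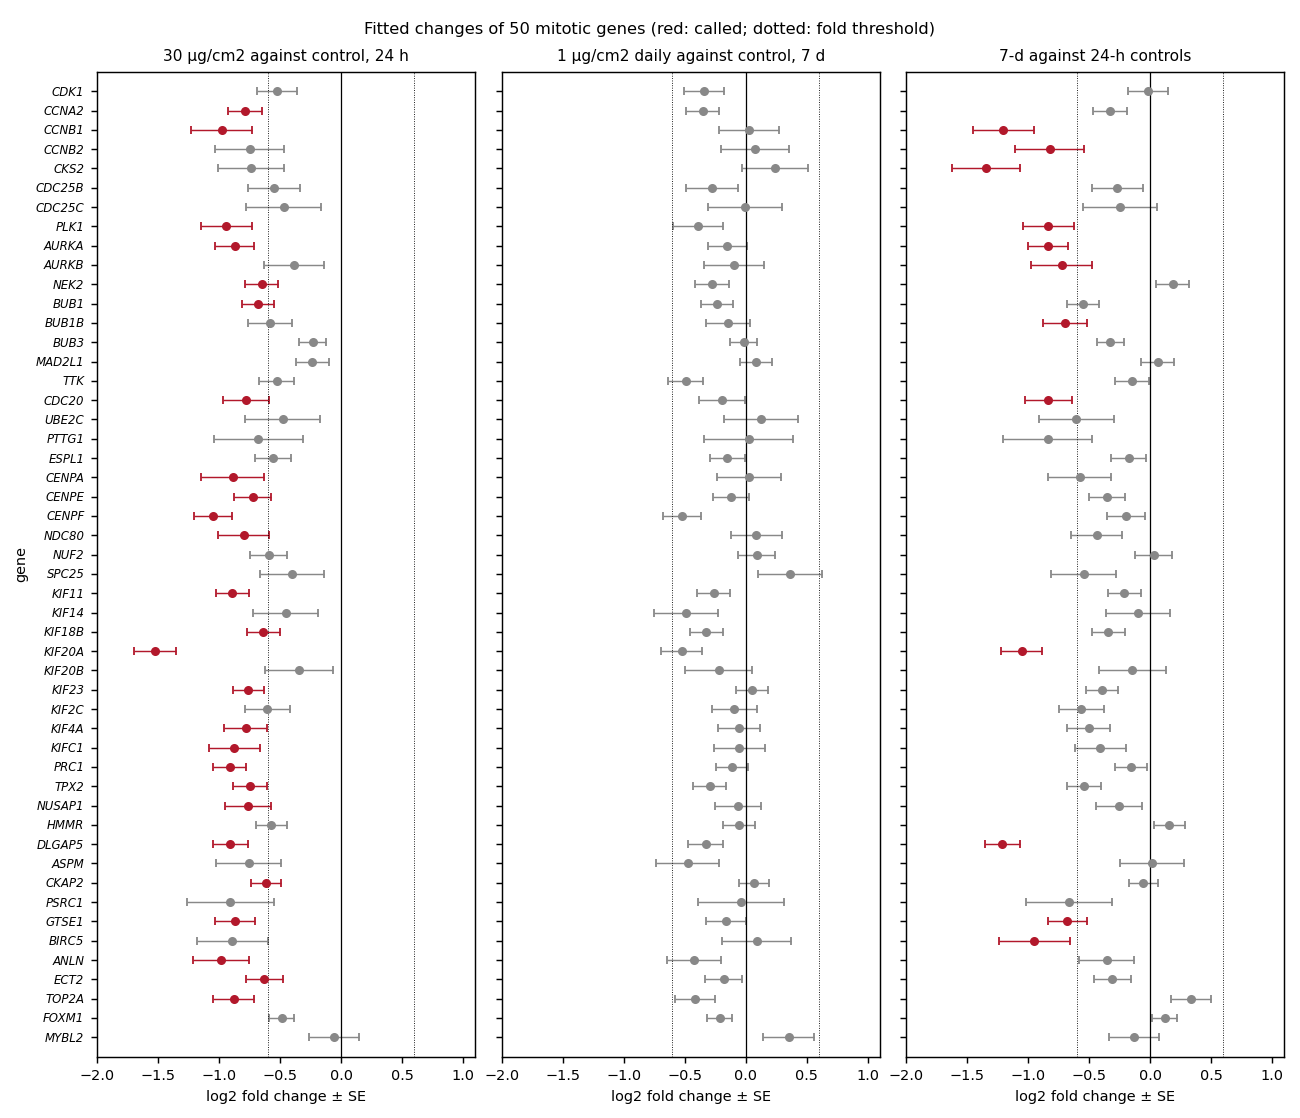
Fitted log2 fold changes of the 50 genes with their SE (3 libraries in each group), for 30 µg/cm2 against control at 24 h, daily 1 µg/cm2 against control at 7 d and the 7-d against the 24-h controls, with dotted lines at a log2 fold change of 0.6 in either direction. Red marks called genes: 26 in the left panel, where every point lies below 0, none in the middle panel and 12 in the right panel.

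Whether the response to 1 µg/cm2 differed between daily exposure and 24 h was asked by an interaction term. No member passed it, nor did any other of the 17599 genes, and no member had an unadjusted p below 0.05 in edgeR (DESeq2 called none, with 1 below 0.05), and the median of the difference was -0.07. Without experiment 2 of the 24-h protocol, 5.73% of all genes were called lower under daily exposure. In that fit 4 members (8.0%) were called, a share near that of all genes, and each had a lower value under daily exposure. These were KIF14 at -0.73 ± 0.13 (adjusted p = 0.0013), ASPM at -0.68 ± 0.18 (adjusted p = 0.017), TOP2A at -0.65 ± 0.10 (adjusted p = 0.00053) and CENPF at -0.61 ± 0.14 (adjusted p = 0.0058). The 24-h arms of that fit hold 2 libraries each.

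The untreated cells of the protocols differed too, in a comparison that uses the same control libraries as the treatments. In the 7-d controls 12 members (24.0%) were lower than in the 24-h controls and none higher, in edgeR and in DESeq2, beside 10.8% of all genes lower and 11.1% higher, and the median was -0.35. At an unadjusted p below 0.05 there were 23 members in edgeR and 27 in DESeq2. For 31 members the 7-d controls were lower without overlap (24.7% of all genes) and for 2, TOP2A and FOXM1, higher without overlap (27.6%). CKS2 changed most, from 263, 293 and 313 CPM at 24 h to 121, 112 and 110 CPM at 7 d, a log2 difference of -1.34 ± 0.28 (adjusted p = 0.0027). DLGAP5 went from 193, 195 and 212 CPM to 83.8, 86.6 and 89.0 CPM (-1.21 ± 0.15, adjusted p = 6.7e-05). CCNB1, at 290, 276 and 263 CPM after 7 d, was lower by -1.20 ± 0.25 on the log2 scale (adjusted p = 0.0029).

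KIF20A (-1.05) and BIRC5 (-0.95) came next, and CCNB2, PLK1, AURKA, AURKB, BUB1B, CDC20 and GTSE1 made up the 12. Without experiment 2 the count was again 12 (14.9% of all genes lower), with BUB1 called at -0.62 and CCNB2 missing the fold threshold at -0.59. PLK1 was at 91.3, 87.7 and 81.4 CPM in the 7-d controls, AURKA at 124, 121 and 116 CPM, AURKB at 67.8, 68.7 and 70.6 CPM and CDC20 at 206, 195 and 184 CPM, each below all its 24-h controls. TOP2A was on the other side, with 1246 to 1257 CPM at 7 d against 950 to 1057 CPM at 24 h, and did not pass (0.34 ± 0.17, adjusted p = 0.15). FOXM1, at 192, 186 and 187 CPM, had 0.12 ± 0.10 (adjusted p = 0.41). CDK1 and MYBL2 had fitted values of -0.02 and -0.13, and both changed sign when a library was left out.

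Set side by side, KIF20A had -1.53 at 30 µg/cm2 and -1.05 between the untreated protocols, CCNB1 -0.98 and -1.20, PLK1 -0.94 and -0.84, and AURKA -0.87 and -0.84. CENPF had -1.05 and -0.20, KIF11 -0.89 and -0.21, ANLN -0.98 and -0.36, and TOP2A -0.88 and 0.34. Both columns rest on the same 24-h controls, and their difference was not tested.

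Other genes of mitosis gave a similar picture at 30 µg/cm2. Of 45 further mitotic genes, also listed with earlier results of these data known, 15 fell and none rose, with a median of -0.50. Over all genes tested, 4.24% were lower and 3.82% higher. MKI67, the proliferation marker, was at 944, 659 and 643 CPM in the controls and at 414, 368 and 388 CPM at 30 µg/cm2 (-0.94 ± 0.24, adjusted p = 0.021). The condensin subunits NCAPG, NCAPH and NCAPD2, the kinesins KIF15 and KIF18A, and CCNF, RACGAP1, TACC3, CDCA8, CENPI, SGO2, DEPDC1, FAM83D and LMNB1 were the rest. None of these 45 was called at 1 µg/cm2 for 24 h or after daily exposure. In the 7-d controls 9 were lower than in the 24-h controls (10.8% of all genes lower), KPNA2 by the most (-1.52 ± 0.20).

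Genes that act before or upon the mitotic machinery were looked at by list. Of 22 genes of S phase none was called at 30 µg/cm2, with a median of -0.30. None of 13 DREAM and MuvB components was called at 30 µg/cm2, their median being -0.01, and LIN52 alone was higher in the 7-d controls (1.04 ± 0.13). Of 9 G2 checkpoint genes and inhibitors, CDKN1A (p21) and GADD45A, both p53 targets, rose at 30 µg/cm2, and WEE1 and FBXO5, an inhibitor of the anaphase-promoting complex, fell. CDKN1A was at 168, 275 and 186 CPM in the controls and at 709, 476 and 730 CPM at 30 µg/cm2, a log2 fold change of 1.61 ± 0.21 (adjusted p = 0.00035). GADD45A was at 56.1, 45.7 and 60.2 CPM in the controls and at 160, 91.1 and 174 CPM in treated cells (1.39 ± 0.21, adjusted p = 0.00098). For both, experiment 2 had the lowest treated value, as it had the highest for the mitotic genes plotted. The activity of p53 was not measured, and a link of these rises to the mitotic genes was not tested. Of 12 regulators of G1, CDK2, CDKN1B, CDKN2C and the sparsely counted CDKN1C fell.

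The identity of the cells was checked by markers. All 8 epithelial markers were expressed, with a summed level of 3950 to 4390 CPM in the 24-h controls. Of these KRT5, KRT7, KRT8, KRT19 and CDH1 fell at 30 µg/cm2, where the sum was 1748 to 2872 CPM, and KRT5 alone fell after daily exposure. The 6 mesenchymal markers summed to 498 to 792 CPM in the 24-h controls and 357 to 578 CPM at 30 µg/cm2, with ACTA2 higher and PDGFRB lower. Of 5 immune markers only CD14 was expressed enough to be tested, PTPRC and LYZ being at 0 in all 24-h controls, and 3 endothelial markers together reached no more than 0.345 CPM in any library. The part of the epithelial markers in the results for the mitotic genes was not tested.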

How the data were processed

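RNA of 15 BEAS-2B libraries (5 groups of 3) was sequenced by the authors as single-end 50-base reads, aligned with STAR and deposited as raw gene counts from featureCounts. The labels name hg19 and the methods GRCh38. The coordinates of 57370 of 57437 shared gene identifiers, and of all 50 members, overlap GENCODE v44 on GRCh38, so GRCh38 is given here. Counting options and strand are not given in the sources used here.

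Genes were filtered by filterByExpr (17599 kept), normalized by TMM and fitted over all 15 libraries with a term per group in edgeR 4.0.16 (glmQLFit in legacy mode, glmQLFTest), with Benjamini-Hochberg adjustment over all genes tested. CPM are TMM-normalized, and log2 values of single libraries use a pseudocount of 0.5 CPM. Depth was 21460981 to 34724765 counts per library. Alternatives were RLE and upper-quartile scaling, other filters, the experiment number as a block, DESeq2 1.42.0, edgeR without legacy mode, fits on the compared groups, and leaving out libraries. On simulated counts for 30 µg/cm2 against control over 17599 genes, 90% of genes changed by a log2 fold of 2 and 56% of those changed by 1 were recovered, with 11 false calls. Each library was drawn on its own, without an effect of experiment, and the changed genes were not limited to the members.

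The design text says that the number at the end of a name marks the experimental batch, and libraries of the same number deviated together (correlations of 0.271 to 0.785 at 24 h and 0.177 to 0.266 at 7 d). The fits reported have no block unless one is named. The members, the lists and the promoter motifs were chosen with earlier results of these data known. Values of 10 members chosen by role are given in every library, with up to 5 called members of the largest change per comparison. The p-values rest on an estimate of spread between experiments of 1 cell line that all 5 groups share. Those at 24 h thus draw also on the 7-d libraries. Fits on the compared groups alone called 8 in place of 26 members for 30 µg/cm2 against control, and 0 in place of 23 against 1 µg/cm2. For the 7-d against the 24-h controls such a fit called 15 in place of 12.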

Additional observations from a re-analysis of the deposited data

Results flagged for a closer look

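In a pair of genes, the 3 same-number differences between 1 µg/cm2 and control all pointed one way at 24 h and the other way after daily exposure. MAD2L1, which forms the checkpoint signal at unattached kinetochores, had a mean difference of -0.10 at 24 h and 0.083 after 7 d, on the log2(CPM + 0.5) scale. NDC80, the microtubule-binding protein of the outer kinetochore, had -0.050 at 24 h and 0.086 after 7 d. Neither difference passed the interaction term in edgeR, where the fitted difference was 0.18 for MAD2L1 (adjusted p = 0.91) and 0.14 for NDC80 (adjusted p = 0.96). Both genes were among 50 looked at, and all of these values are small beside the SE of the fits. Taken singly, 12 of the 50 were lower in all 3 pairs at 24 h. After daily exposure 10 were higher in all 3 pairs, as were 30.5% of all genes. The share of all genes with both patterns was not determined, so the pair is not shown to exceed coincidence.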

How the results depend on the processing

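The counts of calls above held within 1.5 times under other scalings, filters, DESeq2 and edgeR without legacy mode. For 30 µg/cm2 against control, those settings called 27 to 32 of the 50 members. A fit on the compared groups alone called 8 members, and 43 were called without experiment 2 of the 24-h protocol. For 30 against 1 µg/cm2 the same settings gave 0 and 45, and the interaction gave 4 without experiment 2, against 0. When a replicate block for the experiment was added, 33 members were called for 30 µg/cm2 against control and 29 for 30 against 1 µg/cm2, with medians of -0.75 and -0.67, and 0 were called in the other comparisons that could be blocked. No paired analysis was possible for the 7-d against the 24-h controls because they came from different experiments.

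Leaving out each of the 15 libraries in turn gave 14 to 40 calls and a median of -0.92 to -0.65 for 30 µg/cm2 against control, 10 to 39 calls and -0.87 to -0.59 for 30 against 1 µg/cm2, 9 to 16 calls and -0.44 to -0.35 for the 7-d against the 24-h controls, and 0 calls for 1 µg/cm2 at 24 h (median -0.11 to 0.00), daily exposure (-0.14 to -0.11) and the interaction (-0.16 to -0.01). Changes near 0 turned sign. MYBL2 at 30 µg/cm2 against control ran from -0.27 to 0.092 over these fits, with 0.092 without control 2, 0.025 without treated library 1 and 0.027 without treated library 3. Against 1 µg/cm2 it ran from -0.34 to 0.15, the latter without library 2 of the lower dose. Between the untreated protocols, CDK1 became 0.024 without 7-d control 2, and MYBL2 ran from -0.26 to 0.0012, the latter without 24-h control 2, and was 0.0061 without experiment 2. Of 970 values of single named genes under the alternatives, 882 kept direction and side of the threshold, 64 were no longer past it, 17 passed it newly and 7 turned sign. The causes were not tested. On simulated counts with 3 libraries in a group, changes of 1 on the log2 scale were missed in part. Those counts held no effect of experiment, so they do not show what an experiment that stands apart does to the calls.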
